A study of Homo sapiens with 42 samples.

Results

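The 10 genes RBM14, RBM4, ZNF649, ZNF577, ARPC4, TTLL3, CECR7, IL17RA, COX6A1 and GATC are the partners in 5 chimeric transcripts named by the study, and are taken here as pairs of an upstream and a downstream neighbour: RBM14/RBM4, ZNF649/ZNF577, ARPC4/TTLL3, CECR7/IL17RA and COX6A1/GATC. They are 10 of the 58243 genes in the count tables, and all 10 had enough counts to be tested in both kinds of RNA. K562, an established human line from a chronic myeloid leukaemia that depends on the BCR-ABL1 kinase, was left untreated or received 1 of 3 treatments. These were 1 µM imatinib, an inhibitor of that kinase, for 1, 6 or 18 h, 5 µM JTE-607, a compound directed at the 3′ end nuclease CPSF73, for 1, 6 or 18 h, and 110 mM KCl, a hyperosmotic shock, for 1 or 3 h. Polyadenylated RNA of whole cells (mRNA) was sequenced in all 9 groups, and nuclear RNA depleted of ribosomal RNA was sequenced in 5 of them (untreated, imatinib 1 h and 18 h, JTE-607 1 h, KCl 1 h). Every group had 3 biological replicates, 42 libraries in all, and the untreated cells of each fraction served as the control of every treatment of that fraction.

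A chimeric RNA of neighbouring genes can form when RNA polymerase II passes the polyadenylation signal of the upstream gene, runs on into the downstream gene, and the long precursor is spliced from an exon of the upstream gene to an exon of the downstream gene. CPSF73 makes the cut that normally ends the upstream transcript, and hyperosmotic stress is known to lengthen transcripts beyond gene ends. A table of counts per gene holds no junction reads, so the values below are the levels of the partner genes and the ratio between them, not the level of a chimera. A ratio can move because either partner changed, and the level of each partner is therefore given beside it.

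The mRNA libraries held 16439848 to 62953314 counts each, and the nuclear libraries 16175394 to 25103205. The label K562 was read against markers: in untreated mRNA, GATA1 stood at 166 ± 25 CPM (counts scaled to a common library size in the usual way; SD, n = 3) and TAL1 at 154 ± 12.5, while the T cell marker CD3E had at most 0.0524 CPM and the B cell marker MS4A1 had no count. The epithelial markers EPCAM (91.1 CPM) and KRT19 (57.7 CPM), which K562 was not expected to hold, were clearly expressed.

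The partners of each pair lie on the same strand, with different spacing (hg38 coordinates of the count tables). RBM14 (chr11:66616582-66627347) and RBM4 (chr11:66638617-66666682) lie on the plus strand with 11269 bases between them. ZNF649 (chr19:51889224-51905040) and ZNF577 (chr19:51804816-51890950) lie on the minus strand and overlap (a gap of -1727 bases), and 118 bases are exonic in both. ARPC4 (chr3:9792495-9807726) and TTLL3 (chr3:9808086-9855138), on the plus strand, are 359 bases apart. CECR7 (chr22:17036570-17060825) and IL17RA (chr22:17084954-17115694), on the plus strand, are 24128 bases apart, with 2 unnamed genes of the same strand in the gap. COX6A1 (chr12:120438090-120440742) and GATC (chr12:120446438-120463749), on the plus strand, are 5695 bases apart, with TRIAP1 on the other strand in the gap.

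**Figure D1:**
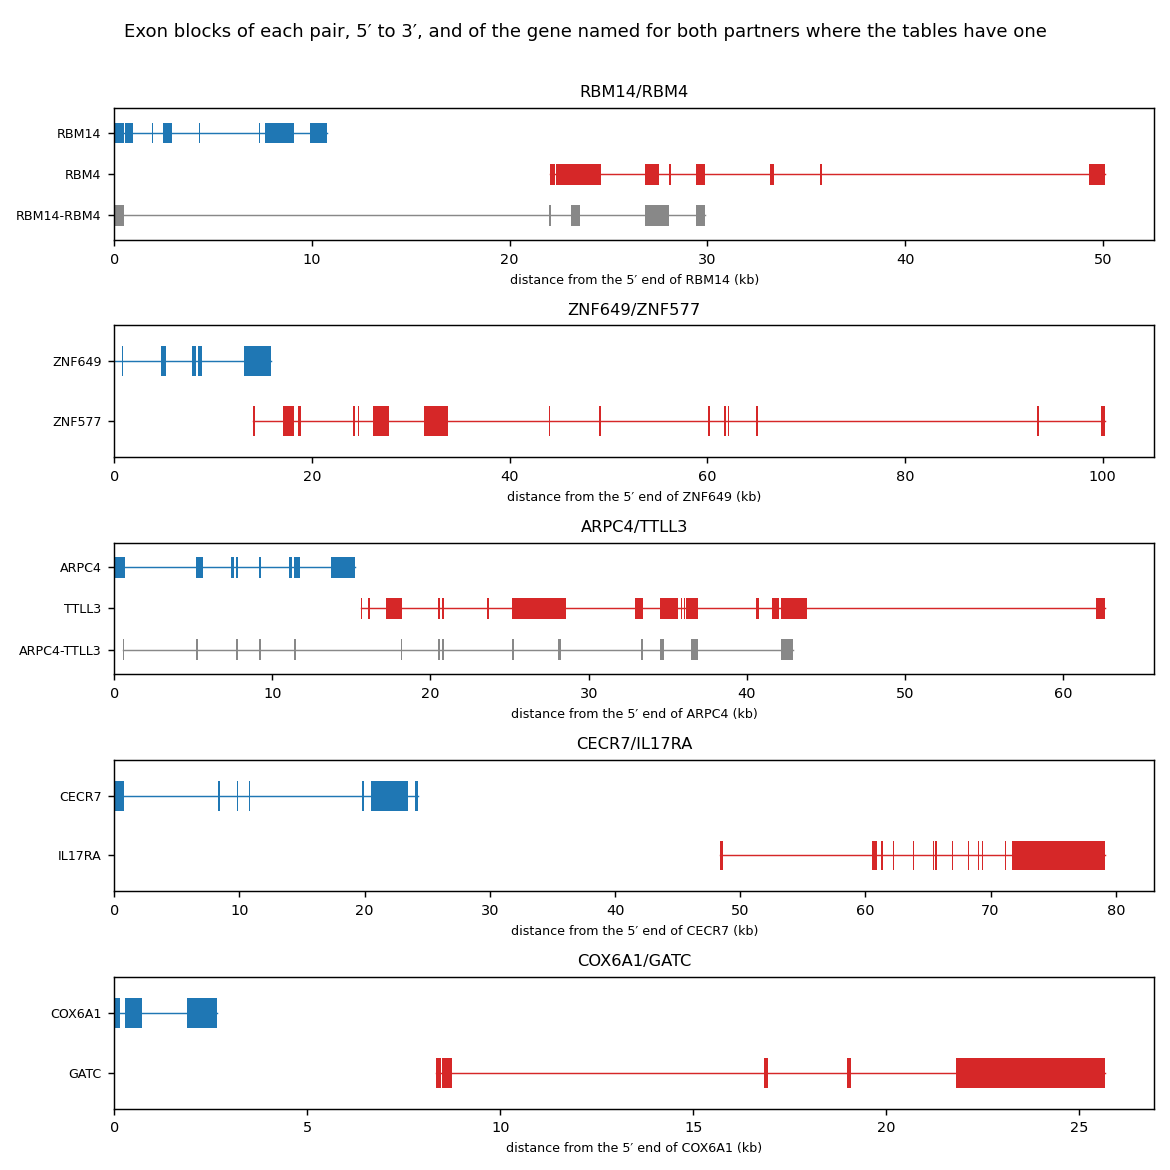
Exon blocks of the 5 pairs along the gene, 5′ to 3′, as distance in kb from the 5′ end of the upstream gene. Blue marks the upstream partner, red the downstream partner and grey the gene that the tables name for both partners, which exists for 2 pairs. The partners are separated by 359 to 24128 bases, except ZNF649 and ZNF577, which overlap.

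How much of a gene can be counted depends on what else covers its exons, because a read pair over exons of more than 1 gene is left out as ambiguous. The share of exonic bases that another gene also covers was 10.97% in RBM14, 48.44% in RBM4, 28.27% in ARPC4, 21.39% in TTLL3, 9.76% in ZNF649, 6.09% in ZNF577, 13.02% in COX6A1, 47.63% in GATC and 0 in CECR7 and IL17RA. RBM4 shares 32.57% of its exonic bases with the annotated gene RBM14-RBM4 and 12.05% with its relative RBM4B on the other strand. GATC shares 39.1% with SRSF9 on the other strand. Counting ignored strand, so in the shared stretches the signal of a gene and of its antisense neighbour cannot be told apart.

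For 3 of the 5 pairs GENCODE 44 already holds transcripts spliced from an exon of the upstream gene to an exon of the downstream gene, and the splice sites they use are shown here because they define what a chimera of each pair joins. Sequences are from hg38, plus strand, 5′ to 3′, with the 15 exonic bases in capitals and the 15 intronic bases in lower case.
RBM14 donor, chr11:66617043-66617072: GTGACGTGGTGAAAGgtaacgcggaggcgc
RBM4 first acceptor, chr11:66639685-66639714: gtttttctctcccagGCTCTTGTCAGGATG
RBM4 second acceptor, chr11:66643435-66643464: gtctgtttcttcaagGCAAACGAATGCACG
RBM4 last acceptor, chr11:66646012-66646041: tgtgctctctttcagGTGGGATGTGTGTGG
ARPC4 first donor, chr3:9801742-9801771: AGGAAGCCTGTGGAGgtgagaccctgtgac
ARPC4 second donor, chr3:9803999-9804028: GAGTTCCTTAAGAATgtgagtaggggcctt
TTLL3 first acceptor, chr3:9810606-9810635: cgcatctttctgcagGTTTCCCGGTCCTCT
TTLL3 second acceptor, chr3:9812928-9812957: tctctcacattgcagCAGAAGAAGATCTTT
COX6A1 donor, chr12:120438507-120438536: CGCATCAGGACCAAGgtacgcccttgtaca
GATC acceptor, chr12:120446642-120446671: tcatccctcctccagGGCAGTGGCCGGATC

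Every donor has GT and every acceptor AG at the intron edge, and each of these sites is also used in the ordinary transcripts of its own gene (the RBM14 donor in 6 transcripts of RBM14, the COX6A1 donor in 1 transcript of COX6A1). The introns that join RBM14 to RBM4 are 22642, 26392 and 28969 bases long. The first ARPC4 donor is joined to the second TTLL3 acceptor over 11186 bases, and the second donor to the first or second acceptor over 6607 or 8929 bases. The COX6A1 and GATC sites are joined over 8135 bases. The authors' alignment behind these counts allowed introns of at most 10000 bases. In it, none of the 3 RBM14 to RBM4 junctions and not the longest ARPC4 to TTLL3 junction could be crossed by an aligned read, whereas the other 3 junctions could. For chimeras the study used the fusion finder SOAPfuse and a separate alignment that allowed longer introns. It showed short and long reads joining RBM14 to RBM4. By RT-qPCR relative to the upstream gene, it reported the ARPC4, CECR7, RBM14 and ZNF649 chimeras as higher by 18 h of imatinib. The COX6A1 chimera was reported as lower with imatinib. ZNF649/ZNF577 and CECR7/IL17RA have no such annotated transcript.

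Per length, the 10 genes of untreated mRNA covered a wide range. On the scale of CPM per kilobase of the length column in the tables (RPKM), COX6A1 stood highest at 49.7 ± 1.88 (SD, n = 3). RBM14 followed at 17 ± 2.6, ARPC4 at 12.5 ± 0.866 and GATC at 10.7 ± 0.482. CECR7 (3.62 ± 0.331) and TTLL3 (3.23 ± 0.131) overlapped in their replicates, as did IL17RA (2.1 ± 0.524) and ZNF649 (1.98 ± 0.258). RBM4 (1.29 ± 0.226) and ZNF577 (0.491 ± 0.0844) were lowest. In all 5 pairs the upstream gene had the higher RPKM in each untreated mRNA library.

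Changes were tested with edgeR's quasi-likelihood test over all genes, and a call required both an adjusted p (Benjamini-Hochberg) below 0.05 and a log2 fold change beyond 0.6. In mRNA, 9 of the 80 combinations of gene and treatment were called, and in nuclear RNA 4 of 40. With imatinib for 1 h no member was called in mRNA (0.0166% of all genes tested were called) or in nuclear RNA (0.0456%). At 6 h of imatinib no member was called in mRNA (9.94% of all genes). After 18 h TTLL3 alone was called higher in mRNA, where 17.2% of all genes were called higher, and RBM14 and GATC were called lower in nuclear RNA (15.4% lower). JTE-607 for 1 h left ZNF649 called lower in mRNA (0.464% of all genes lower) and no member called in nuclear RNA (8.52% of all genes). At 6 h of JTE-607 RBM14, RBM4, CECR7 and GATC were called lower (6.47% lower), and at 18 h none was called (5.39% of all genes). With KCl, TTLL3 was called lower in mRNA at 1 h (2.94% lower), TTLL3 and ZNF649 at 3 h (7.33% lower), and RBM4 and TTLL3 in nuclear RNA at 1 h (8.5% lower). ARPC4, IL17RA, COX6A1 and ZNF577 were not called in any of these 12 comparisons. Treated libraries that do not overlap the untreated ones are mentioned below as description only. Of all genes in mRNA, 32.4% and 55.5% had no overlap at imatinib 6 h and 18 h. With JTE-607 it was 11.2%, 29.9% and 31.4% at 1, 6 and 18 h, and with KCl 17.8% and 30% at 1 h and 3 h. In nuclear RNA it was 53.6% at imatinib 18 h, 28.3% at JTE-607 1 h and 37.5% at KCl 1 h. In the comparisons with no member called, an unadjusted p under 0.05 was reached by 0 of 10 members at imatinib 1 h, 3 at imatinib 6 h and 5 at JTE-607 18 h in mRNA, and by 1 at imatinib 1 h and 3 at JTE-607 1 h in nuclear RNA, and DESeq2 called 0 in each.

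**Figure D2:**
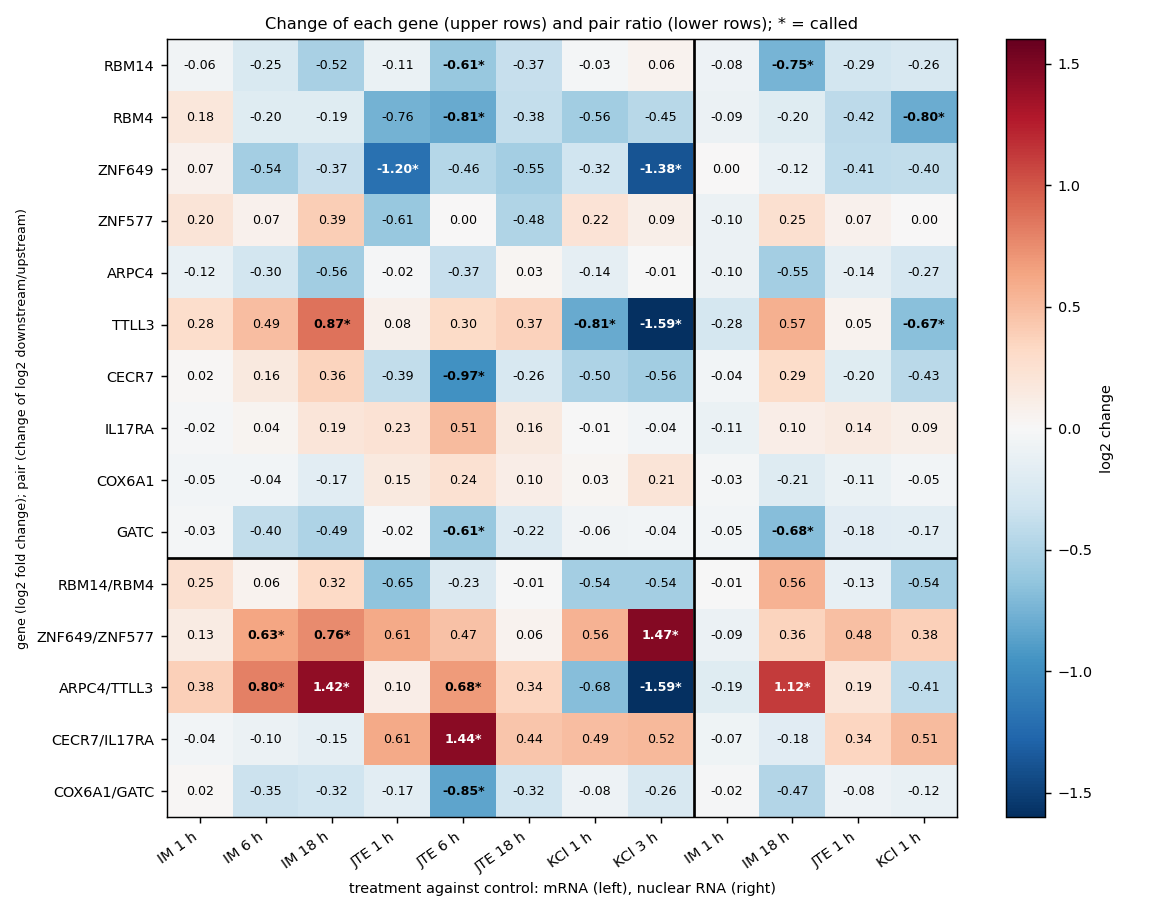
Log2 change against untreated cells of the 10 genes (upper rows, edgeR) and of the downstream to upstream ratio of the 5 pairs (lower rows, limma), for 8 treatments in mRNA (left of the line) and 4 in nuclear RNA (right). Red is higher, blue is lower and an asterisk marks a called change; IM is imatinib and JTE is JTE-607, and TTLL3 and its ratio to ARPC4 carry the most asterisks.

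The ratio of the partners was tested as log2 of the downstream count over the upstream count within each library (0.5 added to each), with limma over every pair of neighbouring tested genes on the same strand (8146 pairs in mRNA, 11045 in nuclear RNA) and the same thresholds. Such a pair was a gene and the nearest tested gene that starts past its 3′ end. ZNF649 and ZNF577 overlap, and a tested gene lies between CECR7 and IL17RA, so these pairs did not meet the rule and were added to the others. Of the 40 combinations of pair and treatment in mRNA 9 were called, and of the 20 in nuclear RNA 1. No member pair was called after imatinib for 1 h, in mRNA (0% of all pairs called) or nuclear RNA (0.0996%). ARPC4/TTLL3 and ZNF649/ZNF577 were called higher after 6 h (6% of all pairs higher) and 18 h (17.7% higher) of imatinib in mRNA, and ARPC4/TTLL3 after 18 h in nuclear RNA (17.9% higher). JTE-607 for 1 h gave no member call in mRNA (1.46% of all pairs) or nuclear RNA (15.8%), and neither did JTE-607 for 18 h in mRNA (10.1%). After 6 h of JTE-607 the ratios of ARPC4/TTLL3 and CECR7/IL17RA were called higher and that of COX6A1/GATC lower (24.5% of all pairs called). With KCl no member pair was called at 1 h in mRNA (8.42%) or nuclear RNA (35.6%), and at 3 h ZNF649/ZNF577 was called higher and ARPC4/TTLL3 lower (19% of all pairs). Where no member pair was called, an unadjusted p under 0.05 was reached by 0 of 5 pairs at imatinib 1 h in both fractions, 2 at JTE-607 1 h, 1 at JTE-607 18 h and 3 at KCl 1 h in mRNA, and 2 at JTE-607 1 h and 4 at KCl 1 h in nuclear RNA.

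**Figure D3:**
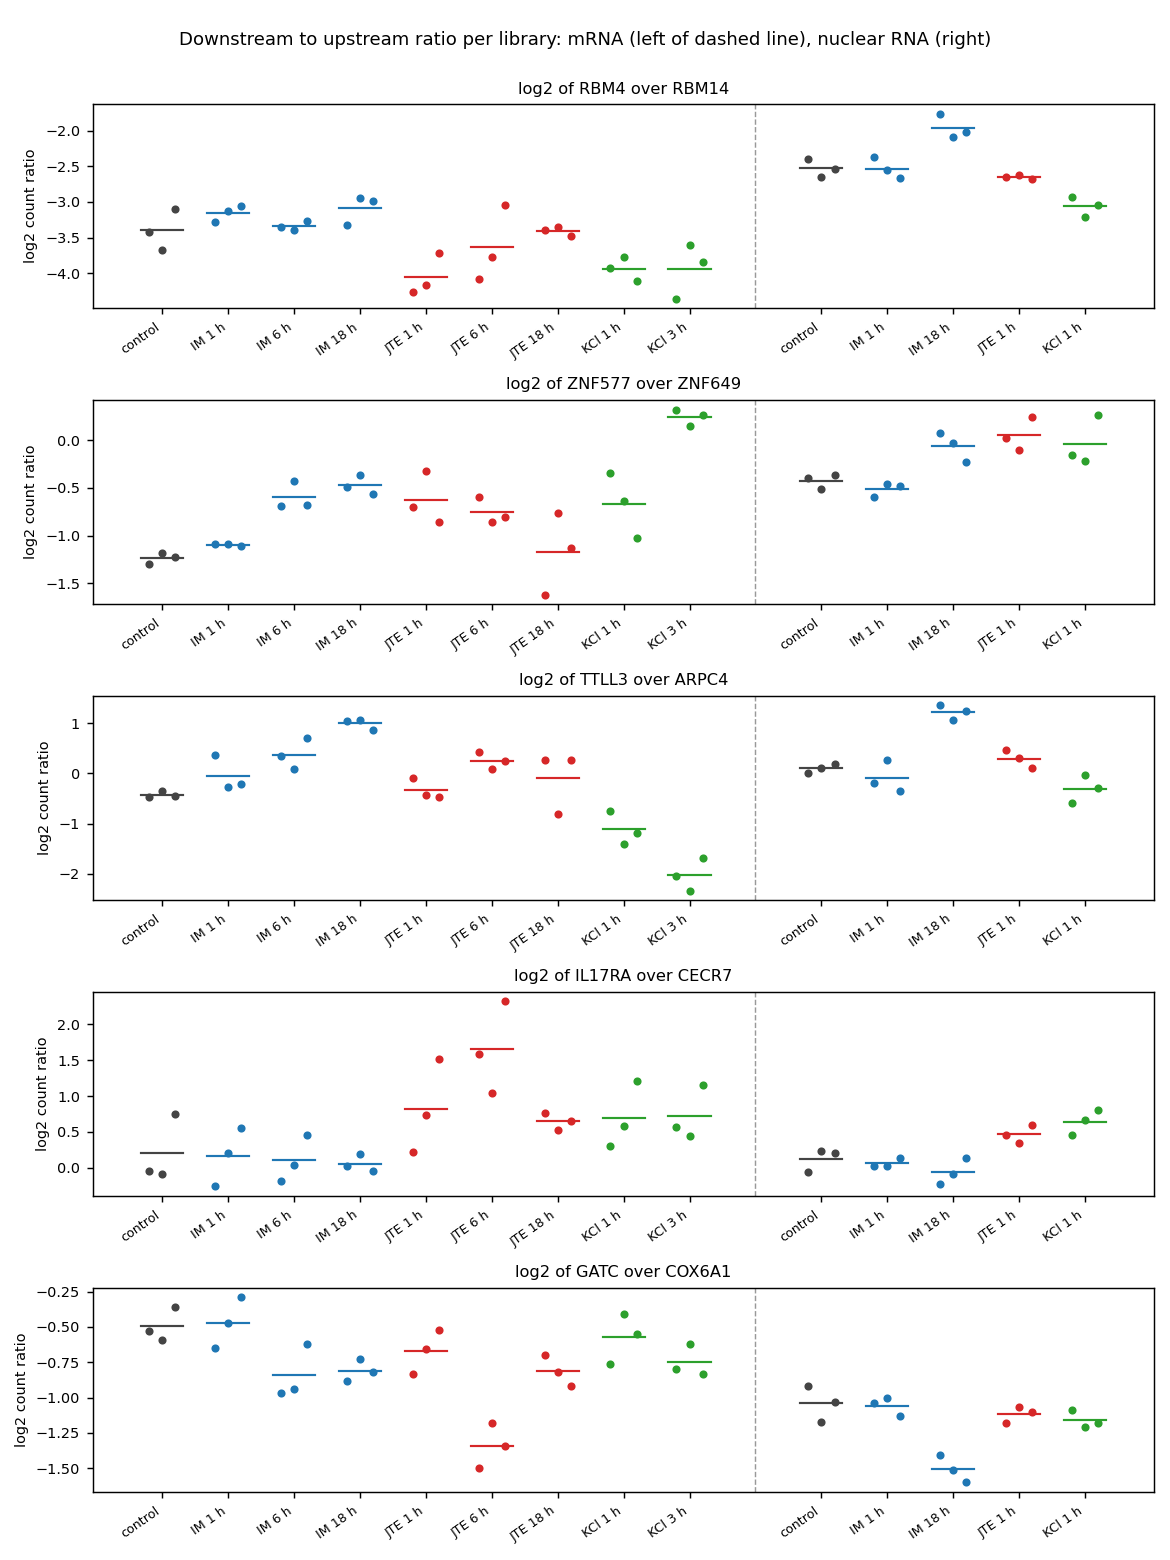
Log2 of the downstream over the upstream count in each library (points) with the group mean (bar), for mRNA groups left of the dashed line and nuclear RNA groups right of it (grey control, blue imatinib, red JTE-607, green KCl). For TTLL3 over ARPC4 the mRNA libraries run from -2.33 at KCl 3 h to 1.07 at imatinib 18 h.

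ARPC4 encodes a subunit of the Arp2/3 complex, which nucleates branched actin filaments, and TTLL3 encodes a ligase that adds glycine to tubulin. This pair moved most. TTLL3 stood at 32.8, 32.6 and 35.1 CPM in the 3 untreated mRNA libraries. After imatinib for 18 h it stood at 59.1, 70.1 and 54.4 CPM, above every untreated library, and the log2 fold change was 0.87 ± 0.17 (SE; edgeR adjusted p = 0.000189). With KCl TTLL3 went the other way. It had 23.3, 15.9 and 18.2 CPM at 1 h (log2 fold change -0.81 ± 0.17, edgeR adjusted p = 0.00256) and 10.9, 9.73 and 12.8 CPM at 3 h (-1.59 ± 0.17, edgeR adjusted p = 6.24e-07). The KCl libraries thus lay below every untreated library at both times.

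ARPC4 itself had 45.6, 41.9 and 48.1 CPM without treatment. It had 28.7, 33.3 and 29.8 CPM after 18 h of imatinib, all below the untreated libraries, with a log2 fold change of -0.56 ± 0.15 that passed on p (edgeR adjusted p = 0.00497) but not on size. At KCl 3 h ARPC4 stood at 44.7, 49.2 and 41 CPM, which overlapped the untreated libraries, with a log2 fold change of -0.01 ± 0.15. The ratio of TTLL3 to ARPC4 was -0.48, -0.36 and -0.45 (log2) in untreated mRNA. It was 1.04, 1.07 and 0.87 after 18 h of imatinib, a change of 1.42 ± 0.24 (limma adjusted p = 5.3e-05), to which a higher TTLL3 and a lower ARPC4 both added. At KCl 3 h it was -2.04, -2.33 and -1.68, a change of -1.59 ± 0.24 (limma adjusted p = 3.09e-05), while ARPC4 differed little.

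At 6 h the ratio of TTLL3 to ARPC4 was 0.34, 0.08 and 0.7 with imatinib (change 0.80 ± 0.24, limma adjusted p = 0.0258) and 0.42, 0.08 and 0.24 with JTE-607 (0.68 ± 0.24, limma adjusted p = 0.0381). Both 6 h calls were weak: leaving out any of 4 libraries ended the imatinib call (adjusted p up to 0.146 without imatinib replicate 3), and leaving out any of 5 ended the JTE-607 call (up to 0.128 without JTE-607 replicate 1). At KCl 1 h the change in mRNA was -0.68 ± 0.24 with a limma adjusted p of 0.0843, not a call. It was called without KCl replicate 1 (-0.87, limma adjusted p = 0.0428), without JTE-607 18 h replicate 2 (limma adjusted p = 0.0305) and with the replicate number as a block (-0.68, limma adjusted p = 0.0199, or 0.0124 with the numbers of untreated replicates 1 and 2 exchanged).

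Nuclear RNA showed the same order for TTLL3. It had 78.3, 80.7 and 89.6 CPM in untreated nuclei and 123, 114 and 132 CPM after 18 h of imatinib, a log2 fold change of 0.57 ± 0.13 (edgeR adjusted p = 0.00097) just under the size threshold, which was passed without untreated replicate 2 (0.61) or 3 (0.68). At KCl 1 h it had 43, 60 and 52.7 CPM (-0.67 ± 0.13, edgeR adjusted p = 0.000305), a call that ended without KCl replicate 1 (-0.56). The nuclear ratio to ARPC4 rose from 0.01, 0.11 and 0.19 to 1.35, 1.07 and 1.24 (log2) after 18 h of imatinib, a change of 1.12 ± 0.15 (limma adjusted p = 1.13e-05). ARPC4 in nuclei had 77.9, 74.8 and 78.6 CPM untreated and 48.3, 54 and 56.1 CPM after 18 h of imatinib (log2 fold change -0.55 ± 0.09, edgeR adjusted p = 6.13e-05), below the size threshold. The annotated gene ARPC4-TTLL3, which spans both partners, had 0 to 6 counts per library and was too low to test. Of its exonic bases 99.75% are shared with other genes, which leaves 7 bases of its own.

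**Figure D4:**
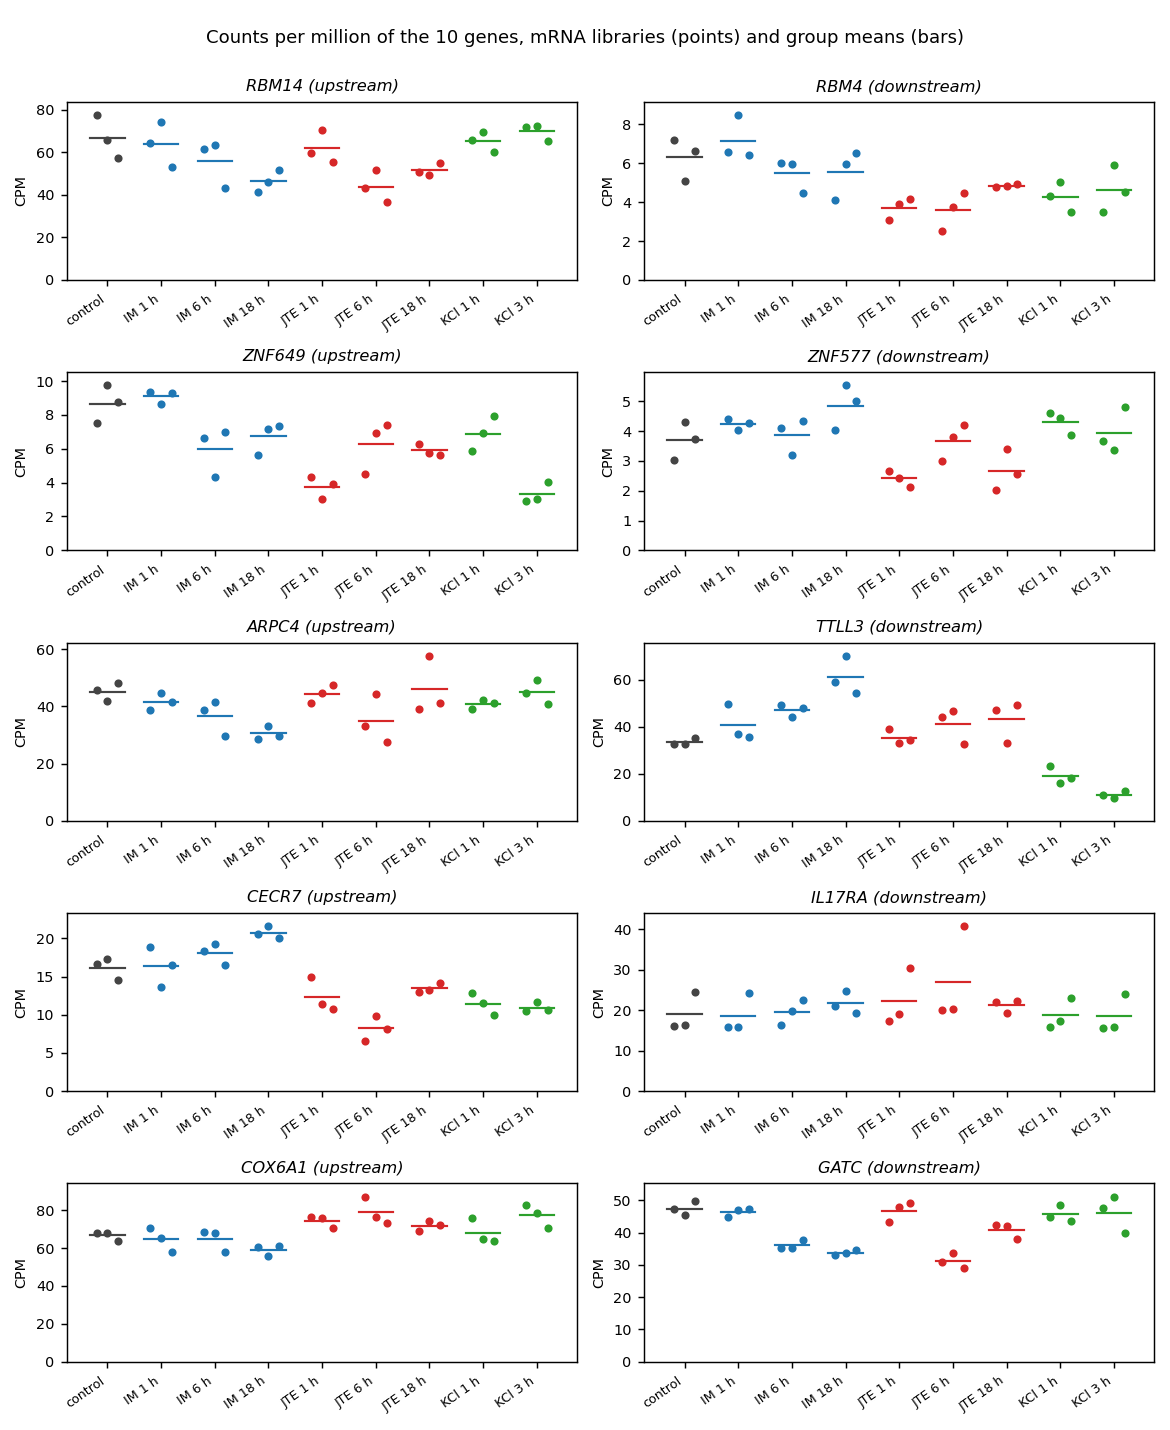
CPM of the 10 genes in each mRNA library (points, 3 per group) with the group mean (bar), each pair in 1 row, upstream gene left. TTLL3 runs from a mean of 11.1 CPM at KCl 3 h to 61.2 CPM at imatinib 18 h, and ZNF649 is lowest at JTE-607 1 h (3.77 CPM) and KCl 3 h (3.32 CPM).

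ZNF649 and ZNF577 encode zinc finger proteins, a family of DNA-binding proteins of which many with a KRAB domain act as repressors. ZNF649 had 7.5, 9.74 and 8.75 CPM in untreated mRNA. It had 4.35, 3.06 and 3.9 CPM after JTE-607 for 1 h, with a log2 fold change of -1.20 ± 0.2 (edgeR adjusted p = 0.0026). At KCl 3 h it had 2.94, 3.02 and 4.01 CPM (-1.38 ± 0.21, edgeR adjusted p = 3.12e-05). Neither set of libraries overlapped the untreated ones, and in a fit of the 6 libraries alone the JTE-607 call was lost (-1.19, adjusted p = 0.153).

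ZNF577 had 3.03, 4.3 and 3.74 CPM in untreated mRNA and 3.67, 3.35 and 4.8 CPM at KCl 3 h, an overlap, with a log2 fold change of 0.09 ± 0.2. At JTE-607 1 h it had 2.67, 2.43 and 2.14 CPM, all below the untreated libraries, but its log2 fold change of -0.61 ± 0.21 did not pass (edgeR adjusted p = 0.264). The ratio of ZNF577 to ZNF649 was -1.3, -1.18 and -1.22 (log2) without treatment and 0.32, 0.15 and 0.26 at KCl 3 h, a change of 1.47 ± 0.21 (limma adjusted p = 1.65e-05). KCl at 3 h was the only mRNA group in which ZNF577 had the higher counts of the 2 genes in each library.

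With imatinib the same ratio was -0.69, -0.43 and -0.68 at 6 h (change 0.63 ± 0.21, limma adjusted p = 0.048) and -0.49, -0.37 and -0.56 at 18 h (0.76 ± 0.21, limma adjusted p = 0.00625). The 6 h call ended when any 1 of its 6 libraries was left out (adjusted p from 0.0752 to 0.162), and the 18 h call did not. Neither gene was called on its own at those times: at 18 h ZNF649 had a log2 fold change of -0.37 ± 0.2 and ZNF577 of 0.39 ± 0.2. In nuclear RNA ZNF649 had 13.8, 14.9 and 15.7 CPM untreated, 11.4, 10.8 and 11.1 CPM with JTE-607 for 1 h and 11.5, 10.9 and 11.3 CPM with KCl for 1 h. Both treated sets lay below the untreated libraries, with log2 fold changes of -0.41 ± 0.11 and -0.40 ± 0.11 that were under the size threshold. The nuclear ratio had its largest change with JTE-607 for 1 h, 0.48 ± 0.15 (limma adjusted p = 0.0312), also under the size threshold.

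RBM14 encodes an RNA-binding protein of paraspeckles and a transcriptional coactivator, and RBM4 encodes a regulator of alternative splicing. Both were lower in mRNA after 6 h of JTE-607. RBM14 had 77.5, 65.6 and 57.1 CPM untreated and 43.4, 51.5 and 36.7 CPM at that time, a log2 fold change of -0.61 ± 0.15 (edgeR adjusted p = 0.00561). RBM4 had 7.22, 5.08 and 6.63 CPM untreated and 2.54, 3.76 and 4.45 CPM at 6 h (-0.81 ± 0.23, edgeR adjusted p = 0.015). In both genes the treated libraries lay below the untreated ones. Both calls depended on single libraries: RBM14 had -0.49 without untreated replicate 1 and -0.49 without JTE-607 replicate 3, and RBM4 had an adjusted p of 0.0745 without untreated replicate 1 and of 0.0987 without JTE-607 replicate 1. At 1 h of JTE-607 RBM4 had 3.09, 3.89 and 4.16 CPM, also below the untreated libraries, with a log2 fold change of -0.76 ± 0.23 that did not pass (edgeR adjusted p = 0.15) but was called with the replicate number as a block when the numbers of untreated replicates 1 and 2 were exchanged (edgeR adjusted p = 0.0297). The ratio of RBM4 to RBM14 was -3.42, -3.68 and -3.1 untreated and -4.08, -3.77 and -3.04 at 6 h, an overlap (change -0.23 ± 0.24, limma adjusted p = 0.54).

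In nuclear RNA RBM14 and RBM4 were called under different treatments. RBM14 had 111, 134 and 136 CPM untreated and 59.4, 85 and 83.4 CPM after 18 h of imatinib, a log2 fold change of -0.75 ± 0.13 (edgeR adjusted p = 0.000125) that went to -0.60, below the size threshold, without imatinib replicate 1. RBM4 had 21.2, 21.4 and 23.6 CPM untreated and 12.1, 12.1 and 14 CPM at KCl 1 h (-0.80 ± 0.11, edgeR adjusted p = 1.26e-05). Each treated set lay below the untreated one. At 18 h of imatinib RBM4 had a log2 fold change of -0.20 ± 0.11, and at KCl 1 h RBM14 had -0.26 ± 0.13, neither of which passed. Accordingly the nuclear ratio of RBM4 to RBM14 was -2.39, -2.65 and -2.53 untreated, -1.76, -2.09 and -2.02 after 18 h of imatinib (change 0.56 ± 0.13, limma adjusted p = 0.00148) and -2.93, -3.21 and -3.04 at KCl 1 h (-0.54 ± 0.13, limma adjusted p = 0.00225), without overlap in either direction but under the size threshold. Of all nuclear pairs, 50.8% had no overlap at imatinib 18 h and 48.6% at KCl 1 h.

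The annotated gene RBM14-RBM4, whose exons come from both partners, had 550 exonic bases of its own. All of these lie beside or between RBM4 exons, 21.977 to 22.035 and 27.559 to 28.051 kb from the 5′ end of RBM14. At the RBM14 end it has no exonic base of its own. In nuclear RNA it had 3.22, 3.33 and 4.41 CPM (72, 73 and 89 counts) untreated and 1.39, 1.16 and 1.5 CPM (26, 25 and 31 counts) at KCl 1 h, a log2 fold change of -1.43 ± 0.2 (edgeR adjusted p = 1.04e-05). At JTE-607 1 h it had 2.27, 2.56 and 2.5 CPM in nuclear RNA, below every untreated library, with a log2 fold change of -0.58 ± 0.18 (edgeR adjusted p = 0.0488) just under the size threshold. In mRNA it had 27, 12 and 19 counts untreated and 2, 15 and 11 counts at KCl 1 h, or 1.49, 0.629 and 1.06 against 0.104, 0.251 and 0.256 CPM, a log2 fold change of -2.22 ± 0.51 (edgeR adjusted p = 0.00695). RBM14-RBM4 and RBM4 were both lower in KCl-treated nuclei. Of the exonic bases of RBM14-RBM4, 61.89% are shared with RBM4 and 16.76% with RBM14, so its counts are uncertain. Because its own bases lie at the RBM4 end only, a fall of these counts cannot be read as a fall of the chimera.

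**Figure D5:**
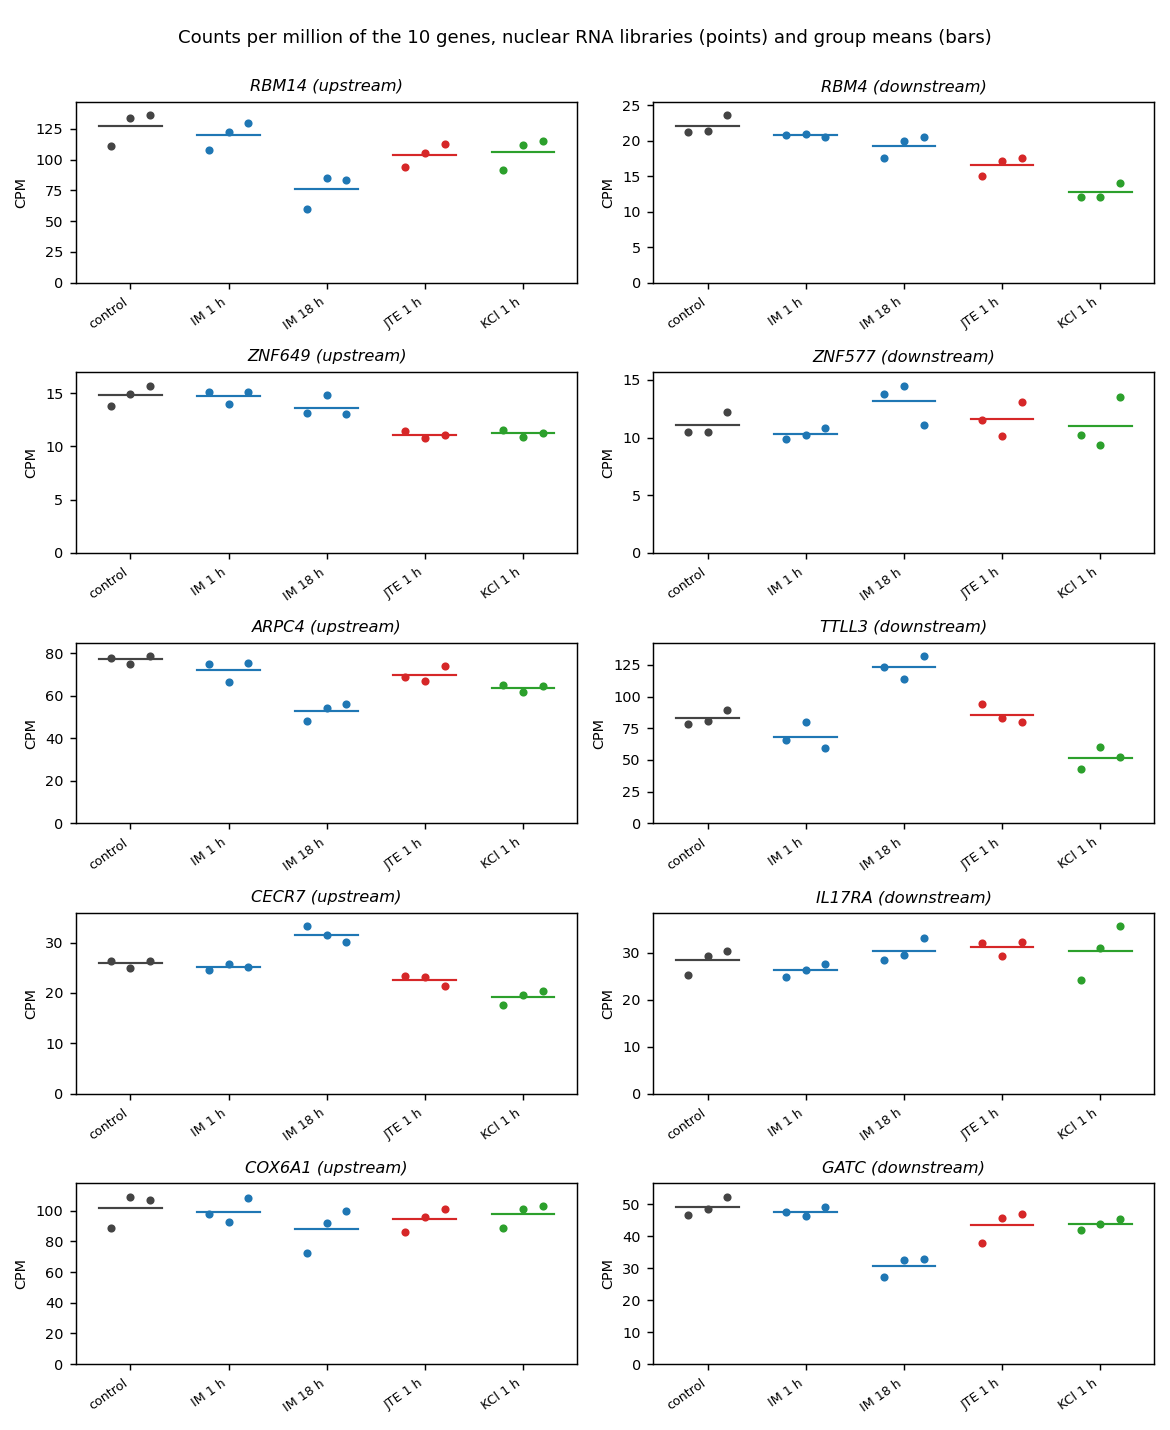
CPM of the 10 genes in each nuclear RNA library (points, 3 per group) with the group mean (bar), each pair in 1 row, upstream gene left. RBM14 and GATC are lowest at imatinib 18 h (means of 75.9 and 30.8 CPM), and RBM4 and TTLL3 at KCl 1 h (12.7 and 51.9 CPM).

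CECR7 is a long noncoding RNA of the cat eye syndrome region, and IL17RA encodes the shared receptor chain for interleukin 17 cytokines. CECR7 had 16.6, 17.3 and 14.5 CPM in untreated mRNA and 6.63, 9.85 and 8.14 CPM after 6 h of JTE-607, with no overlap and a log2 fold change of -0.97 ± 0.15 (edgeR adjusted p = 4.91e-05). IL17RA had 16.1, 16.3 and 24.4 CPM untreated and 20, 20.3 and 40.7 CPM at that time, an overlap, with a log2 fold change of 0.51 ± 0.27 (edgeR adjusted p = 0.203). The ratio of IL17RA to CECR7 went from -0.04, -0.09 and 0.75 (log2) to 1.59, 1.04 and 2.32, a change of 1.44 ± 0.32 (limma adjusted p = 0.00157). CECR7 was the partner of the pair that passed its own test.

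Outside the 6 h time point CECR7 changed less. It had 20.6, 21.6 and 20 CPM after 18 h of imatinib (log2 fold change 0.36 ± 0.15, edgeR adjusted p = 0.0488) and 10.5, 11.7 and 10.6 CPM at KCl 3 h (-0.56 ± 0.15, edgeR adjusted p = 0.00939), both apart from the untreated libraries and both under the size threshold. In nuclear RNA CECR7 had 26.4, 24.9 and 26.4 CPM untreated and 17.7, 19.6 and 20.4 CPM at KCl 1 h (-0.43 ± 0.1, edgeR adjusted p = 0.00187), again under that threshold. The mean of IL17RA stayed between 18.4 and 27 CPM over the 9 mRNA groups and between 26.3 and 31.2 CPM over the 5 nuclear groups.

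The 2 genes between CECR7 and IL17RA have no symbol in the tables. ENSG00000273203 (chr22:17067821-17070675) had 1.76, 1.36 and 1.73 CPM in untreated mRNA and 3.69, 4 and 2.26 CPM after 18 h of imatinib (log2 fold change 1.04 ± 0.24, edgeR adjusted p = 0.0012). It was also called higher in nuclei at that time (0.76 ± 0.16, edgeR adjusted p = 0.000771) and lower in mRNA at KCl 3 h (-0.88 ± 0.26, edgeR adjusted p = 0.0222). ENSG00000273442 (chr22:17080701-17081456), the gene nearer to IL17RA, was tested in nuclear RNA only. Its nuclear level went from 0.179, 0.501 and 0.396 CPM untreated to 0.99, 1.02 and 0.726 CPM with JTE-607 for 1 h (1.33 ± 0.35, edgeR adjusted p = 0.0191) and to 0.898, 0.86 and 0.761 CPM after 18 h of imatinib (1.23 ± 0.36, edgeR adjusted p = 0.00898). IL17RA, downstream of both, was not called in those comparisons.

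COX6A1 encodes a subunit of cytochrome c oxidase, the last complex of the respiratory chain, and GATC encodes a subunit of the mitochondrial GatCAB enzyme that makes glutaminyl-tRNA. COX6A1 was steady, with group means between 59.3 and 79 CPM in mRNA and between 88 and 101 CPM in nuclear RNA. GATC had 47.3, 45.4 and 49.7 CPM in untreated mRNA and 30.9, 33.6 and 28.9 CPM after 6 h of JTE-607, a log2 fold change of -0.61 ± 0.09 (edgeR adjusted p = 4.91e-05). This is just past the size threshold, and without JTE-607 replicate 3 it was -0.56. Over the same 6 h COX6A1 went from 68.3, 68.3 and 63.9 CPM to 87.3, 76.5 and 73.1 CPM (0.24 ± 0.1, edgeR adjusted p = 0.0964). The ratio of GATC to COX6A1 was -0.53, -0.59 and -0.36 (log2) untreated and -1.5, -1.18 and -1.34 at 6 h of JTE-607, a change of -0.85 ± 0.14 (limma adjusted p = 4.25e-05) that held when any library was left out.

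Imatinib also went with a lower GATC. In mRNA it had 35.1, 35.4 and 37.6 CPM at 6 h and 33, 33.8 and 34.5 CPM at 18 h, below every untreated library. The log2 fold change was -0.40 ± 0.09 at 6 h (edgeR adjusted p = 0.00514) and -0.49 ± 0.09 at 18 h (edgeR adjusted p = 0.000205), under the size threshold at both times. In nuclear RNA GATC had 46.7, 48.5 and 52.3 CPM untreated and 27.2, 32.4 and 32.9 CPM at 18 h, and this was called (-0.68 ± 0.11, edgeR adjusted p = 2.81e-05), though not without untreated replicate 3 (-0.58) or imatinib replicate 1 (-0.59). TRIAP1, a small mitochondrial protein gene induced by p53, lies on the other strand (chr12:120443961-120446412), and the 2 genes are transcribed away from each other. It had 60.5, 48.1 and 61.5 CPM in untreated mRNA and 19.9, 29.1 and 24.6 CPM after 18 h of imatinib (log2 fold change -1.21 ± 0.15, edgeR adjusted p = 1.01e-06). TRIAP1 was called lower after 6 h of imatinib as well (-0.68 ± 0.15, edgeR adjusted p = 0.00241), and had a log2 fold change of -0.13 ± 0.15 at 6 h of JTE-607, when GATC was called.

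GENCODE 44 lists a further gene, ENSG00000111780, that splices COX6A1 exons to GATC exons, and it was looked at after its values were seen. It had 1 count in each of 2 mRNA libraries and 0 in the other libraries of both fractions, which cannot be told from the absence of such a transcript at this depth.

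Some members differed between treatments when the difference itself was tested in the same edgeR fit, in 11 of 50 combinations. CECR7 was higher with imatinib than with JTE-607 at 6 h (log2 difference 1.14 ± 0.15, edgeR adjusted p = 3.96e-06), as was RBM4 (0.60 ± 0.23, edgeR adjusted p = 0.0446; 13.6% of all genes were called higher). ZNF577 (0.87 ± 0.21, edgeR adjusted p = 0.00147) and CECR7 (0.62 ± 0.15, edgeR adjusted p = 0.00157) were higher with imatinib than with JTE-607 at 18 h (16.7% of all genes higher). The 18 h call of CECR7 and the 6 h call of RBM4 were each lost under 7 of 13 alternatives, among them the fit without JTE-607 replicate 1 (0.57 and 0.41) or JTE-607 replicate 2 (0.59 and 0.63), without imatinib 18 h replicate 2 for CECR7 (0.57), and without imatinib 6 h replicate 1 or 2 for RBM4 (0.54 and 0.53). At 1 h in mRNA, KCl gave higher ZNF649 (0.88 ± 0.2) and ZNF577 (0.83 ± 0.2) and lower TTLL3 (-0.89 ± 0.17) than JTE-607 (edgeR adjusted p = 0.00797, 0.0131 and 0.00134; 4.29% of all genes called). The ZNF649 call was lost without JTE-607 replicate 2 (0.75) or KCl replicate 3 (0.76), and the ZNF577 call without JTE-607 replicate 3 (0.75) or KCl replicate 2 (0.80). In nuclear RNA TTLL3 was also lower with KCl than with JTE-607 at 1 h (-0.72 ± 0.13, edgeR adjusted p = 0.000246; 5.24% of all genes lower). Between 1 h and 18 h of imatinib in nuclear RNA, TTLL3 was higher at 18 h (0.85 ± 0.13, edgeR adjusted p = 1.72e-05) and RBM14 and GATC were lower (-0.66 ± 0.13 and -0.63 ± 0.11; 31.3% of all genes called). The latter pair of calls was lost without imatinib 18 h replicate 1 (-0.52 and -0.55) or imatinib 1 h replicate 2 (-0.58 and -0.57).

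The response of no member was called different between the fractions in 40 edgeR tests of the interaction of fraction and treatment, the only tool run for this. The shares of all genes called were 0% for imatinib 1 h, 0.0901% for imatinib 18 h, 0.0605% for JTE-607 1 h and 0.668% for KCl 1 h. An unadjusted p under 0.05 was reached by 3 of the 40, the smallest being 0.00204 for ZNF649 with JTE-607 (log2 fold change -0.41 in nuclear RNA and -1.20 in mRNA; edgeR adjusted p = 0.375). In these bulk samples fewer RNA molecules per cell and fewer cells with the transcript cannot be told apart.

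The ratio of the partners in untreated cells did not have the same level in both fractions. RBM4 over RBM14 was -3.68 to -3.1 (log2) in mRNA and -2.65 to -2.39 in nuclear RNA, ZNF577 over ZNF649 was -1.3 to -1.18 and -0.51 to -0.37, and TTLL3 over ARPC4 was -0.48 to -0.36 and 0.01 to 0.19. In these 3 pairs the downstream gene had the larger share in nuclear RNA and the ranges of 3 libraries did not overlap. GATC over COX6A1 went the other way, from -0.59 to -0.36 in mRNA to -1.17 to -0.92 in nuclear RNA, and IL17RA over CECR7 overlapped (-0.09 to 0.75 and -0.06 to 0.24). These ratios need no scaling between libraries, but the 2 fractions differ in library preparation, so the difference was not tested. The share of all pairs that separate between the fractions in this way was not computed, so the separation cannot be read as particular to these pairs.

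Across the 9 mRNA groups Pearson's r between the log2 mean CPM of the partners was 0.28 for RBM14 and RBM4, 0.45 for ZNF649 and ZNF577, -0.54 for ARPC4 and TTLL3, -0.45 for CECR7 and IL17RA and 0.08 for COX6A1 and GATC, given as a description. Between 10.2% (for ZNF649) and 87.3% (for IL17RA) of all other genes had a higher r with a member than its partner had. Across the 5 nuclear groups r was 0.96 for COX6A1 and GATC, 0.19 for RBM14 and RBM4, -0.14 for ZNF649 and ZNF577, -0.46 for ARPC4 and TTLL3 and -0.17 for CECR7 and IL17RA. With COX6A1, 2.36% of the other genes had a higher nuclear r than GATC had, and with GATC 7.62% had a higher r than COX6A1. For the other members this share was 35.9% (RBM4) to 68.3% (ARPC4). Among genes with a mean of at least 10 CPM, those with the highest r over the 9 mRNA groups were FAR2P4 for TTLL3 (r = 0.996), NAT10 for GATC (0.99), RHOC for ARPC4 (0.982), ZNF181 for CECR7 (0.982), YJU2 for RBM14 (0.979), CLDN15 for IL17RA (0.976), PPIA for COX6A1 (0.972), ELK4 for ZNF649 (0.941), ERBIN for ZNF577 (0.924) and MRI1 for RBM4 (0.874).

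Of the 9 Arp2/3 subunits tested, 1 was called lower after 18 h of imatinib in mRNA (13.2% of all genes were called lower) and 2 in nuclear RNA (15.4%), with ARPC5L lowest in both (log2 fold change -0.94 ± 0.1 in mRNA and -1.10 ± 0.1 in nuclear RNA, edgeR adjusted p = 9.62e-08 and 6.1e-08). The median of the list was -0.18 in mRNA, where the median of all genes was 0.04. Of 7 tubulin ligase-like (TTLL) genes tested in mRNA, TTLL3 was the only one called after 18 h of imatinib (17.2% of all genes higher) or after KCl (2.94% lower at 1 h and 7.33% at 3 h). In nuclear RNA 8 were tested, and 1, not TTLL3, was called higher after 18 h of imatinib (3777 of 21929 genes higher). At KCl 1 h in nuclear RNA 1 was called higher (3362 of 21929 genes higher) and TTLL3 lower (8.5% lower). Of the 3 GatCAB genes, QRSL1, the catalytic subunit, was lower after 18 h of imatinib in mRNA (-0.65 ± 0.12, edgeR adjusted p = 0.000101) and in nuclear RNA (-0.67 ± 0.11, edgeR adjusted p = 2.97e-05). The shares of all genes called lower there were 13.2% and 15.4%. None of the 10 nuclear-encoded cytochrome c oxidase subunits was called in any comparison. All genes called ranged from 0.0166% at imatinib 1 h in mRNA to 7152 of 21929 genes at imatinib 18 h in nuclear RNA.

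Of the 4 interleukin 17 receptor chains tested, 2 were called higher after 18 h of imatinib in mRNA (17.2% of all genes higher). IL17RE had the largest rise (1.88 ± 0.58, edgeR adjusted p = 0.0107, from only 0.183 to 0.681 CPM). IL17RC, named after its values were seen, rose as well (1.43 ± 0.18, edgeR adjusted p = 1.07e-06), while IL17RA, the member, did not pass. Of 14 zinc finger genes tested within 500000 bases of ZNF649 and ZNF577, 4 were called higher after 18 h of imatinib in mRNA (17.2% of all genes higher), with ZNF528 highest (2.04 ± 0.4, edgeR adjusted p = 0.000237), and none lower. At KCl 3 h 3 of the 14 were called lower (7.33% of all genes lower), ZNF649 among them. Of 5 splicing factors that the study discusses with chimeras, 3 were called lower after 18 h of imatinib in mRNA (13.2% of all genes lower), with GEMIN5 lowest (-1.18 ± 0.16, edgeR adjusted p = 2.9e-06), and 3 in nuclear RNA (15.4% lower). Of the RNA-binding relatives of RBM14 and RBM4 and the paraspeckle proteins (6 tested), 2 were called lower at 6 h of JTE-607 in mRNA (6.47% of all genes lower), and these were RBM14 and RBM4 themselves.

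Of the 8 partners of other chimeras that the study names, 7 were tested in mRNA. At imatinib 18 h, 2 were called lower (13.2% of all genes lower) and 1 higher (17.2% of all genes higher). After 18 h of imatinib RAB38 had the largest fall (-1.65 ± 0.47, edgeR adjusted p = 0.00689, from 1.26 to 0.397 CPM), its partner CTSC, a lysosomal protease gene named after its values were seen, fell by 1.36 on the log2 scale, and DMC1, a meiotic recombinase gene, rose (0.67 ± 0.24, edgeR adjusted p = 0.0268). The members of these lists share treatments and controls with the 10 genes and were chosen by name, so the counts describe them and compare nothing with the pairs.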

How the data were processed

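The deposited tables hold whole-number counts of read pairs per gene, 1 column per library. The authors trimmed and deduplicated the reads with fastp, aligned them to hg38 with STAR, keeping uniquely mapped reads and introns of at most 10000 bases, and counted pairs over exons with featureCounts, with no strand option, so a pair over exons of several genes was mostly ambiguous and dropped. The annotation release is not given in the sources used here. All count columns were matched to a sample (0 were not). Of the 58243 gene IDs, 57532 are in GENCODE 44, from which splice sites were read with the hg38 sequence.

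From these counts, CPM were computed on TMM-scaled library sizes, and RPKM with the length column of the tables. Genes were filtered with filterByExpr (18095 kept in mRNA, 21929 in nuclear RNA) and tested with edgeR 4.0.16 (quasi-likelihood, robust) in R 4.3.3, fitting each fraction on its own with group as the only term. Ratios of neighbours within 50000 bases were tested with limma 3.58.1 on log2 counts with 0.5 added. Calls needed a log2 change beyond 0.6 with an adjusted p (Benjamini-Hochberg) below 0.05. Both tests were checked on simulated data. Treatments of a fraction share their untreated libraries, so their changes are not independent. Alternatives were DESeq2 1.42.0, other scalings, filters and thresholds, the replicate number as a block (also with 2 untreated mRNA numbers exchanged, as described below, added after seeing the data), and leaving out each library.

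The 10 genes were named in every comparison, with genes that join or lie between partners, the 2 genes most alike to each by Pearson's r, and the largest called rise and fall of each list. The members and lists were chosen with earlier results of these data known. Replicates are labelled biological, and they differed beyond sampling noise (chi-square per gene 2.79 to 88.3). The deviations of each treated nuclear library and the untreated library of the same number correlated at 0.235 to 0.891 (12 correlations), so libraries of 1 number varied together. The main fits did not use this pairing, as group was their only term. The replicate number entered as a block only in an alternative. In mRNA the 24 correlations were -0.368 to 0.877. As deposited they were -0.368 to 0.0784 for replicates 1 and 2, and 0.0553 to 0.877 for replicate 3. The study's own sequencing table numbers untreated mRNA replicates 1 and 2 the other way round than the deposited columns, and with both exchanged the correlations were 0.0553 to 0.877, 23 of them over 0.1. With that exchange, mRNA libraries of 1 number varied together as well, and with the deposited numbers replicates 1 and 2 did not. The labels alone do not settle which numbering is right, and numbers are given as deposited. Results for some marker genes are not reported here.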

Additional observations from a re-analysis of the deposited data

Results flagged for a closer look

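Within nuclear RNA the effect of imatinib differed between 18 h and 1 h for 3 of the 10 genes when that difference was tested itself (edgeR, all nuclear libraries in 1 fit). Of all genes tested, 31.3% were called in this contrast, so the count is near the share over all genes. RBM14 had a log2 difference of -0.66 ± 0.13 (edgeR adjusted p = 0.000405), TTLL3 of 0.85 ± 0.13 (edgeR adjusted p = 1.72e-05) and GATC of -0.63 ± 0.11 (edgeR adjusted p = 6.34e-05). Every 18 h library of RBM14 and GATC lay below every 1 h library, and every 18 h library of TTLL3 lay above them. The share of all genes with such a separation was not computed for this contrast. With library totals in place of TMM scaling RBM14 had -0.55 and GATC -0.51, under the size threshold, while TTLL3 stayed called under all 12 alternatives.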

How the results depend on the processing

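The 34 single calls were recomputed under 456 combinations of call and alternative, of which 404 kept the call, 52 lost it and 0 turned its direction. Without the size threshold the calls went from 9 to 17 for genes in mRNA, from 4 to 12 for genes in nuclear RNA, from 1 to 8 for pairs in nuclear RNA and from 11 to 19 between treatments. Leaving out 1 library at a time gave 7 to 11 gene calls in mRNA, 2 to 5 in nuclear RNA (2 without imatinib 18 h replicate 1), 6 to 10 pair calls in mRNA, 1 to 3 in nuclear RNA (3 without KCl replicate 1, and 2 without untreated replicate 1 or 2 or imatinib 18 h replicate 2), 9 to 11 calls between treatments and 0 to 0 between fractions. The alternatives for differences between treatments and between fractions were chosen after seeing the data. With the replicate block the counts were 9 for genes in mRNA, 4 for genes in nuclear RNA, 10 for pairs in mRNA, 1 for pairs in nuclear RNA and 11 between treatments, and the only call that the block changed was ARPC4/TTLL3 at KCl 1 h in mRNA (-0.68, adjusted p 0.0843 without and 0.0199 with the block). With the block and the numbers of untreated mRNA replicates 1 and 2 exchanged, chosen after seeing the data, there were 10 gene calls and 10 pair calls in mRNA and 11 between treatments. That fit lost no call and added the same pair (adjusted p 0.0124) and RBM4 at JTE-607 1 h in mRNA (-0.76, adjusted p 0.15 without and 0.0297 with it). No block and no DESeq2 fit was run for the difference between fractions. The causes of the lost calls were not tested. Low counts limit ARPC4-TTLL3 and the mRNA values of RBM14-RBM4.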

Other observations

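IL17RA, the receptor gene downstream of CECR7, was highest in replicate 3 in 8 of 9 mRNA groups and in 5 of 5 nuclear groups, untreated cells included. GATC was highest in replicate 3 in 5 of 5 nuclear groups. RBM14, RBM4, ZNF577, ARPC4 and COX6A1 were each highest in that replicate in 4 of 5 nuclear groups. In mRNA ARPC4 was highest in replicate 2 in 7 of 9 groups, and COX6A1 in replicate 1 in 7 of 9. The shares of all genes with such an order of replicates were not computed.

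Genes next to the members in function had their own changes in nuclear RNA. TTLL1, a tubulin glutamylase subunit gene, went from 0.0919 to 1.16 CPM after 18 h of imatinib (log2 fold change 3.56 ± 0.49, edgeR adjusted p = 6.67e-06), and ZNF610, a zinc finger gene of the ZNF649 and ZNF577 cluster, went from 0.0152 to 2.38 CPM at KCl 1 h (6.80 ± 0.76, edgeR adjusted p = 7.34e-07). Both start from a few counts at most, so their fold changes depend on the prior count of the fit.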
